A study of Mus musculus with 6 samples.

Results

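The MYC, MAX and MXD network was followed in sinusoidal endothelial cells of mouse liver through 10 genes, Myc, Mycn, Max, Mnt, Mxd1, Mxd3, Mxd4, Mxi1, Mlx and Mga. They were taken by symbol from a table of 23337 genes, and all 10 were present and passed the filter on low counts. The cells were isolated from mice with immunomagnetic beads, grown in endothelial medium with serum on plates coated with collagen IV and then deprived of serum. In the stretch group (replicates 1, 2 and 4) a Flexcell device, which deforms the membrane under the cells, applied 4% cyclic stretch at 1 Hz, and in the control group (replicates 2, 3 and 4) the cells stayed unstretched. The sources used here do not give the strain, age and genotype of the mice, the length of stretch or which libraries came from separate isolations, so the spread between libraries may be technical. RNA sequencing gave between 48948948 and 68489956 gene counts per library.

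The proteins of this network share a basic helix-loop-helix leucine zipper, with which they bind DNA as pairs, mostly at the E-box CACGTG. MAX is the common partner. MYC and MYCN pair with MAX and activate genes of growth, ribosome production and metabolism, whereas the MXD proteins, MXI1 and MNT pair with MAX at the same sites and recruit SIN3 corepressors. MGA joins MAX to a Polycomb repressor complex, and MLX pairs with some MXD proteins and with the glucose-sensing MONDO factors. MYC is induced early when quiescent cells are given mitogens, and MXD genes are typically expressed in resting or differentiating cells.

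The promoters are shown because E-box letters lie in those of network genes themselves. RefSeq windows (GRCm38.p6, 250 bases before to 50 after the start) were found for 9 of the 10 genes, all but Myc. CACGTG, which reads the same on both strands, was present in the windows of Max, Mlx, Mnt and Mxd4, and in 7.15% of all 32851 windows of that length. Of the 9952 tested genes with a window, a closer background, 11.5% held these letters. The stretches below run from 250 bases before to 10 bases after the start, on the strand of the gene, with CACGTG in capitals.
Max, chr12:76962239-76962498, minus strand: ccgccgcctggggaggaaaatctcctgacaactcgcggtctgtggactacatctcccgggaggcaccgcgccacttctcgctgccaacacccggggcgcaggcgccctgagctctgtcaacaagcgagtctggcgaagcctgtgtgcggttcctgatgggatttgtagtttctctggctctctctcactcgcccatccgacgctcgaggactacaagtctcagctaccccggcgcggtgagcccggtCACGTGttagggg
Mlx, chr11:101087040-101087299, plus strand: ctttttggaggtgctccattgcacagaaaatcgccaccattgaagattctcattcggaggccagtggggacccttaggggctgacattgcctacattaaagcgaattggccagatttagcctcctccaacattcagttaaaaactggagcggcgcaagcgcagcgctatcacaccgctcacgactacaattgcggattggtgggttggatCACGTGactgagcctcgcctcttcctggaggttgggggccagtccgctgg
Mnt, chr11:74830674-74830933, plus strand: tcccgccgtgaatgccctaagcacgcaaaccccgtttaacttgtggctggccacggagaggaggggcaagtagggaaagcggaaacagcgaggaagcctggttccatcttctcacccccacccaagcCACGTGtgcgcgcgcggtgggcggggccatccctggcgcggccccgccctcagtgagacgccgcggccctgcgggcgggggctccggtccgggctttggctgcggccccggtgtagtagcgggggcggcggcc
Mxd4, chr5:34187701-34187960, minus strand: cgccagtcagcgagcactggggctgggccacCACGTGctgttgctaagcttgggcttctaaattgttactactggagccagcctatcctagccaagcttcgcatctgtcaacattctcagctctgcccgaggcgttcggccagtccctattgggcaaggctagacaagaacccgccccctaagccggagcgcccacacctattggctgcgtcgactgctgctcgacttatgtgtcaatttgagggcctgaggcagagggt
Counted from the start site, the E-box began at position -3 in Max, -40 in Mlx, -123 in Mnt and -219 in Mxd4. These 4 genes did not share a direction after stretch: Max and Mlx rose, Mxd4 fell and Mnt was not called. The Mycn window held no CACGTG but 2 copies of TTTGGCGC, the form of an E2F site. These letters were searched on both strands and chosen after the sequence was seen. At least 1 copy was held by 0.514% of all windows and by 1.12% of the tested genes with a window. The 2 copies in Mycn are capitalised here.
Mycn, chr12:12941827-12942086, minus strand: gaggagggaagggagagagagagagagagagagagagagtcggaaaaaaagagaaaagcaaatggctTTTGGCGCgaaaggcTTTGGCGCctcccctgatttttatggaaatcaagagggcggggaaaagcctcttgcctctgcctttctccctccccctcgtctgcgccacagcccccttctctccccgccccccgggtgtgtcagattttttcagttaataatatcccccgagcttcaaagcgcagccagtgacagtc
No motif match is evidence of binding, and letters absent from a window may lie elsewhere.

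Stretched cells had more Myc, Mycn, Max and Mlx RNA and less Mxd4 and Mxi1 RNA than control cells, and Mnt, Mxd1, Mxd3 and Mga were not called. These calls come from edgeR's quasi-likelihood test over 14222 genes, with an adjusted p below 0.05 and no minimum fold. The 10 genes were chosen by symbol with the stretch-against-control counts of this same comparison known, so their differences are given as a description, without p-values. Of the 10, 4 were called higher and 2 lower, where 44.0% of all genes tested were called, 21.4% higher and 22.6% lower. The group ranges did not overlap for the same 6 genes, and for 55.9% of all genes tested. Nothing is read from these counts. Levels are in CPM (the count relative to the library total), scaled by TMM, a correction for RNA composition, and means carry the SD over 3 libraries per group. Values per library are listed in the order of replicates 2, 3 and 4 for control cells and 1, 2 and 4 for stretched cells.

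The activators had the largest increases. Myc (chromosome 15, 61985341 to 61990361), the broadly expressed family member, stood at 129, 134 and 126 CPM without stretch and at 206, 213 and 236 CPM with stretch. Every stretch library was above every control library. The mean rose 1.69-fold, from 129 ± 3.90 to 218 ± 15.9 CPM (log2 fold change 0.75 ± 0.06 SE). Myc was among the abundant transcripts, above 91.5% of the genes tested in mean level (CPM), and its deposited RPKM, a level per length, went from 51.4 ± 1.61 to 81.7 ± 5.72.

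Mycn (chromosome 12, 12936093 to 12941836), the paralogue best known from embryonic and neural tissue, was scarce in control cells. It had 100, 71 and 77 counts in control replicates 2, 3 and 4, equal to 1.69, 1.40 and 1.44 CPM, and 591, 516 and 350 counts with stretch, equal to 10.6, 7.60 and 6.22 CPM. The lowest stretch library was well above the highest control library, and the stretch libraries spread more widely than those of any other network gene relative to their mean. The mean rose 5.37-fold, from 1.51 ± 0.16 to 8.14 ± 2.24 CPM (log2 fold change 2.42 ± 0.21 SE), which ranked 26 among the 14222 genes ordered from the largest increase down.

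Stretch replicate 1, the highest in Mycn, also stood apart in transcripts of hepatocytes. The summed level of 14 hepatocyte markers was between 102 and 145 CPM in control libraries, 999 CPM in stretch replicate 1 and between 211 and 221 CPM in the other stretch libraries, and 11 of the 14 were called higher. Without this library the log2 fold change of Mycn was 2.20 and that of Myc 0.80, and the same 6 network genes were called. Summed macrophage markers (12 genes, 8 of 10 tested higher) lay between 111 and 119.6 CPM in control and between 143 and 178 CPM in stretch libraries, and biliary markers (6 genes, 3 higher and 1 lower) between 94.8 and 122 CPM and between 153 and 177 CPM. Stellate cell and fibroblast markers (11 genes, none of 10 tested called) lay between 86.4 and 98.5 CPM and between 68.9 and 114 CPM, and 11 lymphocyte markers summed to at most 0.569 CPM, with Cd3d, Cd3g, Cd8a, Ms4a1 and Nkg7 at 0 throughout. No marker of the other lists was at 0 in every library. The part of these cell types in the levels of network genes was not tested. The 12 sinusoidal endothelial markers were all detected, at a summed 13055 to 14533 CPM in control and 11078 to 12626 CPM in stretch libraries, with 9 called lower. Every stretch library lay below every control library for Stab1, Stab2, Clec4g, Fcgr2b, Mrc1, Kdr, Tek, Gpr182 and Oit3. Of these, named after their values were seen, Gpr182 was at 214, 163 and 199 CPM without and 74.0, 96.7 and 67.2 CPM with stretch. Stab2 was at 1780, 1707 and 1840 CPM without and 1658, 1498 and 1362 CPM with stretch. Group ranges overlapped for Pecam1, Lyve1 and Cdh5, also named after their values were seen. Pecam1 was at 1739, 1744 and 1876 CPM without and 1742, 1698 and 1588 CPM with stretch. Lyve1 was at 839, 973 and 981 CPM without and 1088, 999 and 978 CPM with stretch. Cdh5 was at 2671, 2845 and 3209 CPM without and 3616, 3060 and 3214 CPM with stretch. In bulk RNA, fewer cells of a type and less RNA per cell cannot be told apart.

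**Figure D1:**
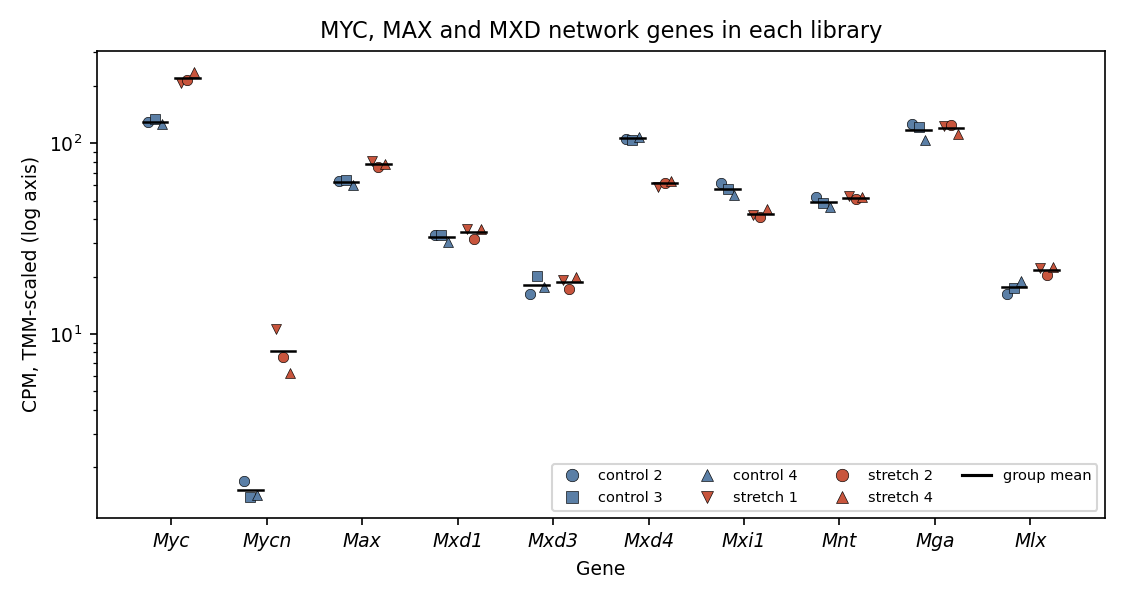
Each point is the level of 1 gene in 1 library, in TMM-scaled CPM on a log axis, with bars at the group means. The stretch points lie above the control points for Myc, Mycn, Max and Mlx, below them for Mxd4 and Mxi1, and among them for the other 4 genes.

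Max (chromosome 12, 76937269 to 76962248), the obligate partner, changed less than the activators. Its level was 63.0, 64.1 and 60.6 CPM without stretch and 80.6, 75.0 and 78.2 CPM with stretch. The groups did not overlap, and the mean rose 1.25-fold, from 62.5 ± 1.76 to 77.9 ± 2.80 CPM (log2 fold change 0.32 ± 0.05 SE). Max shares 1319 annotated bases with Gm47218 on its own strand, for which no count was used here.

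Among the MXD genes only Mxd4 and Mxi1 were called. Mxd4 (chromosome 5, 34176580 to 34187710), a MAX-dependent repressor, was at 105, 104 and 108 CPM without stretch and at 58.8, 62.0 and 63.7 CPM with stretch. All stretch libraries were below all control libraries by a wide margin. The mean fell 1.72-fold, from 106 ± 2.22 to 61.5 ± 2.51 CPM (log2 fold change -0.78 ± 0.05 SE). In size this was close to the rise of Myc.

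Mxi1 (chromosome 19, 53310506 to 53375810), another MXD-type repressor, had 61.9, 57.7 and 53.2 CPM without stretch and 42.1, 40.9 and 45.4 CPM with stretch. The groups again did not overlap. The mean fell 1.35-fold, from 57.6 ± 4.36 to 42.8 ± 2.36 CPM (log2 fold change -0.43 ± 0.07 SE). The Mxi1 interval holds 2 annotated transcripts of the opposite strand, and the sources used here do not give the strand setting of the counting, so their reads cannot be told apart from those of Mxi1.

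The other MXD genes overlapped between groups. Mxd1 (chromosome 6, 86647045 to 86669159), an MXD repressor known from differentiating cells, was at 33.2, 32.8 and 30.5 CPM without stretch and at 35.7, 31.3 and 35.7 CPM with stretch, with a log2 fold change of 0.09 ± 0.07 (SE). Mxd3 (chromosome 13, 55325168 to 55329730), the MXD gene known from proliferating cells, was at 16.2, 20.2 and 17.7 CPM without stretch and at 19.2, 17.2 and 19.9 CPM with stretch, with a log2 fold change of 0.06 ± 0.09 (SE). Neither gene separated the groups. Mxd1 shares 2364 annotated bases with Gm44292 on its own strand, also with no count used here. Mxd3 shares 105 annotated bases with the more abundant Prelid1 on the opposite strand (265 ± 16.6 CPM without and 283 ± 11.3 CPM with stretch), and with the strand setting not known reads of the shared bases cannot be told apart.

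Mnt and Mga, the large repressors of the network, were not called either. Mnt (chromosome 11, 74830924 to 74845725) was at 52.4, 48.4 and 46.5 CPM without stretch and at 52.8, 50.8 and 52.1 CPM with stretch, a log2 fold change of 0.08 ± 0.05 (SE). Mga (chromosome 2, 119897228 to 119969581) was at 126, 122 and 104 CPM without stretch and at 123.7, 125 and 112 CPM with stretch, a log2 fold change of 0.04 ± 0.08 (SE). Both ranges overlapped. The signs of Mnt, Mga, Mxd1 and Mxd3 turned negative when library size alone was used for scaling, so no direction is given for these 4 genes.

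Mlx (chromosome 11, 101087290 to 101092207) had the smallest called change. It was at 16.3, 17.4 and 19.0 CPM without stretch and at 22.1, 20.3 and 22.3 CPM with stretch, which do not overlap. The mean rose 1.23-fold, from 17.6 ± 1.36 to 21.6 ± 1.13 CPM (log2 fold change 0.30 ± 0.08 SE), but the call was lost without control replicate 2 (log2 fold change 0.25) and with library size alone as scaling (0.20). It shares 385 annotated bases with Psmc3ip on the opposite strand, which averaged 2.58 ± 0.07 CPM without stretch and 2.60 ± 0.61 CPM with it.

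**Figure D2:**
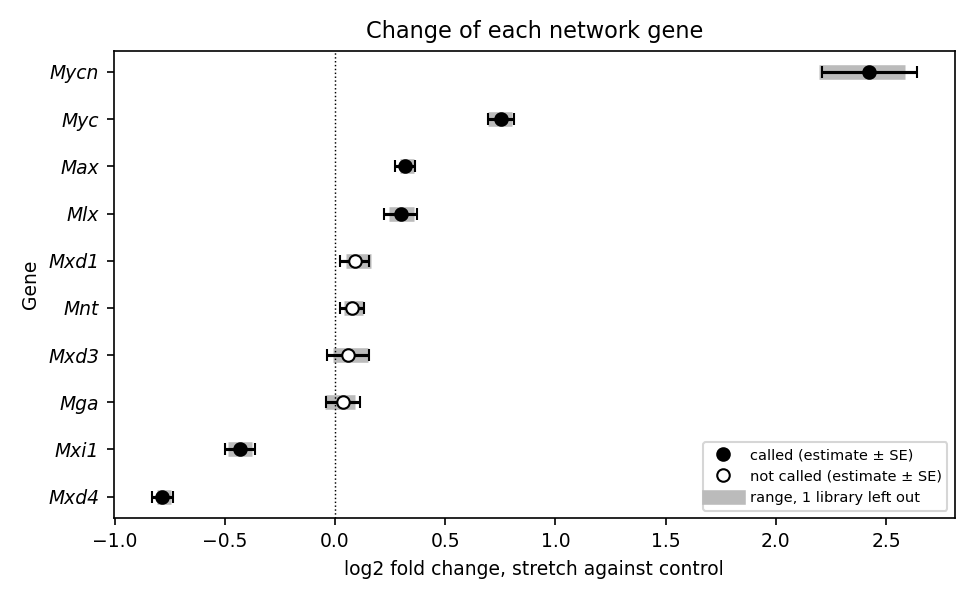
Points give the log2 fold change of each gene, stretch against control, with SE bars; filled points were called over all genes, and grey bands span the estimates with 1 library left out. Mycn stands far to the right at 2.42, Mxd4 and Mxi1 lie left of 0, and the bands of Mxd3 and Mga cross 0.

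Levels of different genes were compared per length, in the deposited RPKM (reads scaled to the deposited gene length and to library depth), which are not TMM-scaled. In control cells Mxd4 was the most abundant at 85.6 ± 2.79 RPKM, ahead of Myc at 51.4 ± 1.61, Max at 29.7 ± 0.74 and Mxd3 at 13.2 ± 1.59 RPKM (SD, n = 3). The ranges of neighbours in this order did not overlap. Mnt, Mxi1, Mlx and Mga followed between 10.2 and 8.02 RPKM, each overlapping its neighbour, then Mxd1 at 6.57 ± 0.23 RPKM and Mycn last at 0.55 ± 0.05 RPKM.

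In stretched cells Myc came first at 81.7 ± 5.72 RPKM and Mxd4 second at 46.8 ± 2.26 RPKM, and Max, Mxd3 and Mnt followed in that order at 34.9 ± 0.69, 13.0 ± 0.77 and 10.1 ± 0.06 RPKM (SD, n = 3). Mlx at 9.80 ± 0.33 and Mga at 7.76 ± 0.55 RPKM came next. Mxi1 moved from sixth to eighth place at 6.83 ± 0.30 RPKM, overlapping Mga and Mxd1. Mycn stayed last at 2.81 ± 0.75 RPKM, 3.37 ± 1.10% of the summed Myc and Mycn level against 1.07 ± 0.12% in control cells (SD, n = 3).

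The leading pair thus changed places. The ratio of Mxd4 to Myc was 1.66, 1.58 and 1.75 without stretch and 0.582, 0.591 and 0.549 with stretch. Per length, every control library had more Mxd4 than Myc, and every stretch library had less. This order rests on the deposited lengths, 1179 bases for Mxd4 and 2399 bases for Myc. Without division by length, Myc was above Mxd4 in control libraries too, at 129, 134 and 126 against 105, 104 and 108 CPM.

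Summed over activators and repressors, the levels came close to each other without changing places in every library. Myc plus Mycn came to 51.0, 53.8 and 51.2 RPKM without stretch and to 79.6, 84.3 and 89.5 RPKM with stretch. Mnt and the 4 MXD genes (Mxd1, Mxd3, Mxd4 and Mxi1) came to 123, 126 and 127 RPKM in control and to 80.95, 83.3 and 85.7 RPKM in stretch libraries, in the same order. In stretch replicate 1 the repressor sum was still the higher, and in stretch replicates 2 and 4 the activator sum was. The activator sum was 0.415 ± 0.012 of the repressor sum in control and 1.01 ± 0.031 of it in stretch libraries (SD, n = 3). Mxd4 supplied 68.3 ± 1.41% of the repressor sum in control and 56.2 ± 1.64% in stretch libraries. The Max level was 0.572 ± 0.005 of the activator sum in control cells and 0.414 ± 0.031 of it in stretched cells. These are ratios of RNA, not of protein. They depend on the deposited gene lengths and follow from the differences already described.

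**Figure D3:**
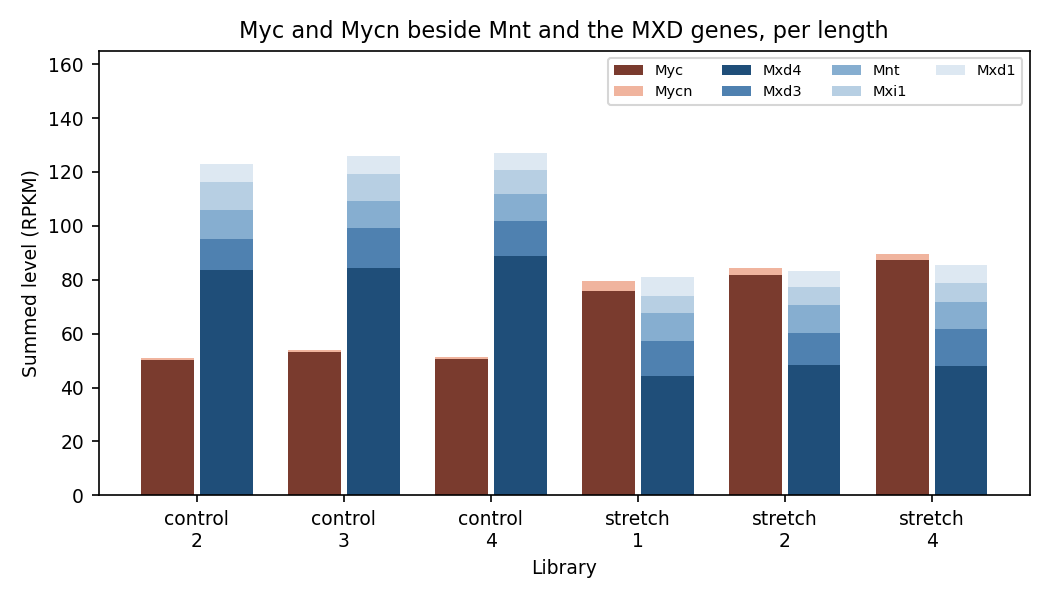
Stacked bars give the level of each gene in RPKM in each library, Myc and Mycn in the brown bar and Mnt and the MXD genes in the blue bar. In control libraries the blue bar is over 122 RPKM and the brown bar under 54 RPKM, and in stretch libraries both lie between 79 and 90 RPKM.

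The genes that followed Myc most closely over the 6 libraries were Znhit6, a factor of snoRNP assembly, Leo1, a subunit of the PAF1 transcription elongation complex, and Ppan, a factor of large ribosomal subunit production. Their centred log2 CPM differed from that of Myc by a root mean square of 0.033, 0.042 and 0.042. The closest to Mycn were Tiam1, an activator of the GTPase RAC1, Hbegf, a ligand of the EGF receptor, and the AP-1 subunit Fosb, at 0.23, 0.23 and 0.27. Likeness here is mostly that of the step between the groups, over 6 libraries.

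Other genes were grouped in lists drawn up from general knowledge with earlier results of these data known, and nothing is called particular to a list. Their differences are likewise a description, and adjusted p-values are printed only for genes whose call was lost under another setting. Of 9 tested relatives of the network, 4 rose and 2 fell, where 44.0% of all genes tested were called (21.4% higher and 22.6% lower), and their median log2 fold change was 0.21 against -0.01 over all genes. Pvt1, a long noncoding RNA beside Myc, was at 14.6, 13.9 and 12.3 CPM without stretch and at 18.3, 16.8 and 19.2 CPM with stretch (log2 fold change 0.41 ± 0.09 SE). The E-box repressor Bhlhe40 rose 2.14-fold, from 34.1 ± 6.18 to 73.2 ± 7.47 CPM. Usf1 and Usf2, which bind the same E-box without MAX, fell 1.35-fold and 1.15-fold. Mycl, the third family member, listed as Mycl1 and named after its values were seen, was at 1.58 ± 0.331 CPM without and 1.86 ± 0.345 CPM with stretch and was not called, and Mycs had no count in any library.

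The MONDO partners of MLX were named after their values were seen. Mlxip, encoding MONDOA, rose 1.15-fold, from 113 ± 5.26 to 131 ± 2.78 CPM (edgeR adjusted p = 0.00889, and 0.0917 with library size alone as scaling). Mlxipl, encoding ChREBP, a factor of hepatocytes, was called higher, at 0.25, 0.20 and 0.45 CPM without stretch and at 2.15, 0.85 and 0.46 CPM with stretch. Its highest library was the one highest in hepatocyte markers, and without it the edgeR adjusted p was 0.101. Leaving out control replicate 2 or 3 also ended the edgeR call, with adjusted p-values of 0.1002 and 0.0892, as did the replicate number as a block (0.189) and limma-voom (0.0712).

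Of the 6 known targets of MLX and MONDO factors, 2 rose, 1 fell and 3 did not pass, a share called near the 44.0% of all genes tested, with a median log2 fold change of 0.33. This median over few genes includes Pklr, which was not called and is named after its values were seen. Pklr was at 0.66, 0.83 and 0.56 CPM without stretch and at 2.44, 0.66 and 0.69 CPM with stretch. Its highest library was stretch replicate 1, the one highest in hepatocyte markers. Arrdc4, an arrestin family member, rose 1.58-fold, from 50.3 ± 2.97 to 79.7 ± 6.73 CPM, and the Krueppel-like factor Klf10 rose 1.82-fold. Txnip, an inhibitor of thioredoxin and of glucose uptake, was at 453, 407 and 429 CPM without stretch and at 293, 318 and 276 CPM with stretch. It fell 1.45-fold, so the best known targets of this branch moved in opposite directions.

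Genes commonly given as activated by MYC were mostly higher. Of 65, 54 rose, 4 fell and 7 did not pass, with a median log2 fold change of 0.51 against -0.01 over all genes tested, of which 21.4% were called higher and 22.6% lower. Without stretch replicate 1, 52 rose and 3 fell. The clearest were Wdr43 and Nop58, factors of small ribosomal subunit production and box C/D snoRNPs, Gnl3, which encodes nucleostemin, and Pprc1, a coactivator of mitochondrial gene expression. Wdr43 was at 93.4, 98.0 and 90.8 CPM without stretch and at 175, 163 and 176 CPM with stretch (1.82-fold). Nop58 rose 1.99-fold, from 113 ± 5.86 to 225 ± 19.6 CPM, Gnl3 1.85-fold and Pprc1 1.67-fold.

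Further members, named after their values were seen, show the spread of the list. Odc1, the rate-limiting enzyme of polyamine synthesis, rose from 1791 ± 358 to 3999 ± 634 CPM, and the glycolytic enzyme gene Hk2 from 9.06 ± 2.06 to 24.5 ± 5.60 CPM, the largest log2 fold change of the list (1.43 ± 0.20 SE). The 4 that fell were the replication helicase genes Mcm4 and Mcm5, the sorbitol dehydrogenase gene Sord and the sterol-related gene Tmem97. CACGTG was present in the promoter windows of 17 of the 58 list members that have one (29.3%) and of 8.09% of all 27025 genes in the promoter table. Of the genes tested, a closer background, 9952 of 14222 have a window, and 11.5% of those held the letters. Among genes called higher that have a window the share was 13.95%. Tested genes without a window are not covered. Within the list they were in 15 of 48 windows of genes that rose, in 2 of 7 of genes not called and in 0 of 3 of genes that fell. The list holds genes already given as activated by MYC, so its share of E-box letters says nothing about stretch. Base composition was not taken into account.

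Genes commonly given as repressed by MYC went both ways. Among 15, there were 5 that rose, 6 that fell and 4 not called, against 21.4% higher and 22.6% lower over all genes tested, with a median log2 fold change of -0.09. With library size alone as scaling, 3 rose and 7 fell. Cdkn1b, the cell cycle inhibitor p27, fell 1.68-fold, from 50.7 ± 3.86 to 30.1 ± 5.12 CPM, and the antiproliferative gene Btg1 fell 1.56-fold. Cdkn1a, the inhibitor p21, rose 1.38-fold, from 1027 ± 34.2 to 1415 ± 115 CPM, and the integrin gene Itgb1 rose 1.25-fold.

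Cell cycle genes linked to MYC also went both ways: of 17, 5 rose, 4 fell and 8 did not pass, a share called near the 44.0% of all genes tested, with a median log2 fold change of 0.07. The G1 kinase gene Cdk6 rose 3.06-fold, from 4.15 ± 0.53 to 12.7 ± 2.75 CPM, with the cyclin genes Ccnd1 (1.80-fold) and Ccnd2 (1.36-fold), while Ccnd3 fell 1.48-fold. The proliferation marker Mki67, named after its values were seen, was at 12.9, 13.1 and 11.4 CPM without stretch and at 6.42, 8.38 and 4.32 CPM with stretch. It was called lower, and its stretch libraries were all below the control libraries. Cdk6, Ccnd1 and Ccnd2 on one side and Mki67 on the other thus moved in opposite directions. Other genes of this list, also named after their values were seen, did not all follow Mki67. Cks2 rose from 6.86 ± 0.56 to 9.45 ± 0.92 CPM and E2f3 was called higher, while Cdk2 and E2f1 were called lower. Ccna2, Ccnb1, Ccne1, Ccne2, Cdc25a, E2f2 and Mcm2 were not called.

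Cofactors of MYC, 20 genes, included 7 that rose and 2 that fell, a share called near the 44.0% of all genes tested, with a median log2 fold change of -0.01. Only 1 fell with the replicate number as a block, and likewise without control replicate 2, control replicate 3, stretch replicate 1 or stretch replicate 4. Wdr5, which helps bring MYC to chromatin, rose 1.39-fold, the AAA ATPase gene Ruvbl1 1.38-fold, Ccnt1, a subunit of the elongation kinase P-TEFb, 1.30-fold and the kinase gene Pim1 1.34-fold. Of 20 corepressor genes of MXD, MNT and MGA, which also include Wdr5, 5 rose and 4 fell, again near the 44.0% called over all genes, with a median log2 fold change of -0.00076. Only 3 rose with the replicate number as a block and without control replicate 2, control replicate 3 or stretch replicate 1. Sap30 rose 1.47-fold and E2f6, a partner of MGA, 1.28-fold, and Sin3a, the scaffold that MXD proteins bind, fell 1.28-fold, from 88.8 ± 3.11 to 69.2 ± 4.75 CPM. With library size alone as scaling these 2 lists gave 7 higher with 5 lower and 3 higher with 7 lower.

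Of 20 genes that control the stability of the MYC protein, 4 rose, 2 fell and 14 did not pass, below the 44.0% called over all genes tested, with a median log2 fold change of 0.01. Usp36, a nucleolar deubiquitinase of MYC, rose 1.45-fold, from 50.3 ± 1.41 to 73.0 ± 5.77 CPM, and Set, an inhibitor of the phosphatase PP2A, 1.29-fold. The ubiquitin ligase gene Fbxo32 fell 2.22-fold, from 22.3 ± 2.74 to 10.02 ± 2.61 CPM, and the PP2A subunit gene Ppp2r5a 1.24-fold. Fbxw7, the main ubiquitin ligase subunit for MYC, also named after its values were seen, averaged 28.2 ± 1.80 CPM without stretch and 30.4 ± 0.691 CPM with it and did not pass. With library size alone as scaling this list gave 2 higher and 6 lower, and without control replicate 2 it gave 2 of each.

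**Figure D4:**
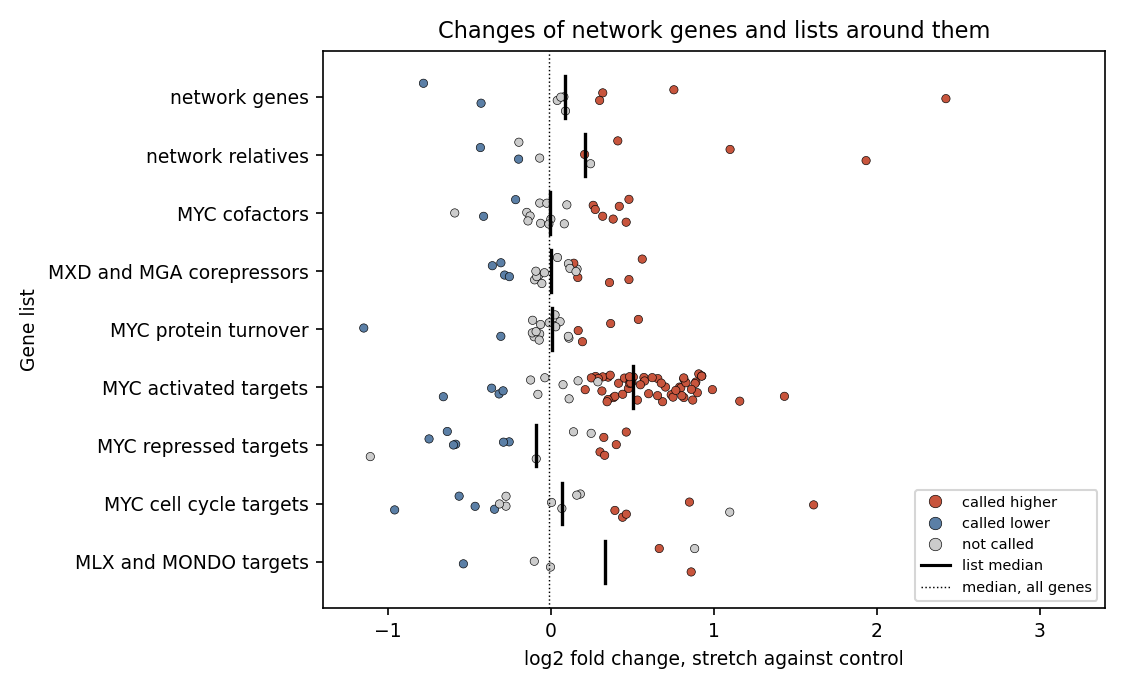
Each point is the log2 fold change of 1 tested gene, stretch against control, by list, red or blue where called; black bars are list medians and the dotted line is the median of all genes. Points of the MYC activated targets lie mostly right of 0 around a median of 0.51, and the other lists spread to both sides.

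The authors' deposited table of the same comparison gave log2 fold changes of 2.42 for Mycn, 0.75 for Myc, 0.32 for Max and 0.30 for Mlx, and of -0.78 for Mxd4 and -0.43 for Mxi1. For Mnt, Mxd1, Mxd3 and Mga the authors' deposited table gave 0.08, 0.09, 0.06 and 0.04.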

How the data were processed

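RNA was measured in 3 control and 3 stretch libraries, grouped by their labels. The authors deposited a table of unnormalised gene counts. RPKM values, log2 fold changes, mean log2 CPM, a score (the likelihood ratio) and a p-value with its FDR were deposited in a second table, per the file headers. TopHat2 2.1.0, featureCounts, edgeR and the build GRCm38 (mm10) are named in the submitters' processing notes, which do not tie a tool to a table. The sources used here do not give the annotation or strandedness. The total behind each RPKM was 7.42% to 8.91% above the gene count sum.

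The test was run in R 4.3.3 with edgeR 4.0.16 (TMM, filterByExpr, quasi-likelihood F test, Benjamini-Hochberg over 14222 of 23337 genes, threshold 0.05). Each SE was obtained from the log2 fold change and its F statistic. CPM after TMM scaling gave the means and SDs. Depth was 48948948 to 68489956 counts per library. The p-values set each group difference only against a spread estimated from these libraries, which may be technical. The steps were run on simulated counts in which few genes changed, evenly in both directions. That run could not check the choice of scaling. The network genes and lists were chosen with earlier results of these data known. The text names all 10 network genes, up to 4 called genes of smallest p per list (the 2 of smallest p where fewer than 2 were called), and the 3 genes closest to Myc and to Mycn by centred log2 CPM (prior count 2). Other names were chosen after their values were seen and are said to be, or stand as examples of a count. Alternatives were scaling by RLE, by upper quartiles or by library size alone; no filter or 1 CPM in 3 libraries; DESeq2 1.42.0 or limma-voom (limma 3.58.1); a block for the replicate number; and leaving out each library. Promoter letters were searched in RefSeq windows, and overlapping genes come from GENCODE M21 (GRCm38).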

Additional observations from a re-analysis of the deposited data

How the results depend on the processing

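Over 14 alternatives, Myc, Mycn, Max, Mxd4 and Mxi1 kept their direction and call in each. Mlx kept its direction in all 14 and its call in 12. The log2 fold change ranged from 0.66 to 0.82 for Myc, from 2.14 to 2.59 for Mycn, from 0.22 to 0.36 for Max, from -0.88 to -0.75 for Mxd4 and from -0.52 to -0.37 for Mxi1. The 4 genes that were not called changed sign with library size alone as scaling, to -0.014 for Mnt, -0.0047 for Mxd1, -0.034 for Mxd3 and -0.053 for Mga. With 1 library left out, Mxd3 ranged from -0.011 (without control replicate 2) to 0.149 and Mga from -0.043 (without control replicate 4) to 0.092. Library size alone moved log2 fold changes by a median of -0.09 and left 32.7% of called genes higher, against 48.6%. The number of network genes called was 5 or 6 throughout. Of 65 MYC activated targets, between 50 and 54 were called higher in each of the 14. The replicate number as a block called 5568 genes and the same number of network genes, 6. Libraries numbered 2 correlated across groups at 0.21 and those numbered 4 at 0.11 in their deviations from the group means. Libraries with unlike numbers correlated across groups at between -0.20 and 0.18. With only 2 shared numbers, and no label that pairs them, the numbers were not taken as pairs. The ratio of Mxd4 to Myc ranged from 1.62 to 1.71 in control and from 0.565 to 0.586 in stretch libraries with 1 library left out. Mycn rests on as few as 71 counts in a library, the other network genes on at least 880.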
